A study of Mus musculus with 14 samples.

Results

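The 6 genes described here encode the core of the MHC class II antigen presentation machinery: the peptide-binding chains H2-Aa, H2-Ab1 and H2-Eb1, the peptide editor chains H2-DMa and H2-DMb1, and the invariant chain Cd74. They were taken as all non-control probes that carry one of these gene names, which gave 10 probes for 6 of the 27670 genes on the array. The RNA came from whole testes (strain C57BL/6) and was hybridized in one colour to Agilent arrays with probes of 60 bases. Glis3KO2 is the label of mice in which Glis3, a zinc finger transcription factor, is disrupted, and WT is the wild-type control; how the gene was disrupted is not given in the sources used here. The groups were 1-week WT (4 arrays), 1-week Glis3KO2 (4), 4-week WT (3) and 4-week Glis3KO2 (3), all untreated. The older age is 4 weeks in the labels of the samples, which are used here, and 3 weeks in the text of the series. Whether each sample was its own animal is not stated, so p-values reflect the spread between these samples, which may be technical.

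MHC class II molecules display peptides from proteins taken up by the cell to CD4+ T cells, and are made mainly by dendritic cells, B cells and macrophages. An alpha and a beta chain pair in the endoplasmic reticulum with the invariant chain, which fills the peptide groove and guides the complex to endosomes, where proteases trim it and the DM heterodimer swaps the remnant for antigen peptide. The genes are known to be switched on together by the coactivator CIITA, which acts through the RFX complex on the X box and NF-Y on the Y box of their promoters. In the testis, class II protein is known from interstitial and peritubular macrophages.

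All 10 probes were well above background on all 14 arrays and none was saturated. Signals are given on the log2 scale with the 75th percentile of the array set to 0, and a difference is that of Glis3KO2 from WT where no other contrast is stated. A level is not set against that of another probe. Glis3 itself, read by 1 probe, was above background on 4 of 4 arrays of 1-week WT and on 0 of 4 of 1-week Glis3KO2 (log2 difference -3.17, limma adjusted p = 0.00586), and on 0 of 3 arrays of each 4-week group. The Sertoli and Leydig cell marker lists were above background in full (6 of 6 genes each) on every array. Between 74.3% and 86.6% of spots were well above background, with 82.6% to 86.6% on 1-week WT replicates 1 to 3 and 76.7% on 1-week WT replicate 4, close to the 74.3% to 78.5% of 1-week Glis3KO2. In whole tissue, a change in the number of cells of a type and a change in RNA per cell cannot be told apart.

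Because the members moved in 2 directions at 4 weeks, the promoters of genes from both sets are shown first. These are the 250 bases before the start of transcription from RefSeq, build GRCm38.p6, 5′ to 3′ on the strand of the gene, with capitals marking the X box letters AGNNACNGA and the Y box letters ATTGG, searched on both strands.
H2-DMb1, chr17:34152941-34153190, plus strand: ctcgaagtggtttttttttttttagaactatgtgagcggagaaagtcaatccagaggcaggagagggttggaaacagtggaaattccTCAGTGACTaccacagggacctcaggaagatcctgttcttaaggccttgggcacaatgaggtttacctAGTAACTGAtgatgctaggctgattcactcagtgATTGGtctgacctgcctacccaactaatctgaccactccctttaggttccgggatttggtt
H2-Eb1, chr17:34305617-34305866, plus strand: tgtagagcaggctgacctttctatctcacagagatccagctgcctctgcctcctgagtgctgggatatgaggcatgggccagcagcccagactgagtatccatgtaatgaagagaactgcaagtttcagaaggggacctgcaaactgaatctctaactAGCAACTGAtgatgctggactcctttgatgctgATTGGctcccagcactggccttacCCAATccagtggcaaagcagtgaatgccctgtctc
H2-Aa, chr17:34287824-34288073, minus strand: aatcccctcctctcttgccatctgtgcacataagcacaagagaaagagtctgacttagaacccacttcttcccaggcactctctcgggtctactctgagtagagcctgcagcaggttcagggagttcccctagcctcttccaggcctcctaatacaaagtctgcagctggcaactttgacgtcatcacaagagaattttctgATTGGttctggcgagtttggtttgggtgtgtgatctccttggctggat

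The promoters of H2-DMb1 and H2-Eb1 carry the same arrangement of letters. An X box starts 95 bases before the start of H2-DMb1 and 92 before that of H2-Eb1, and a Y box begins 25 and 24 bases after its end. H2-DMb1 holds a further X box on the other strand, and H2-Eb1 a further Y box on the other strand. H2-Aa holds the Y box 48 bases before its start and no match to these X box letters, and of the pair of entries for H2-DMa neither holds an X box match and 1 holds a Y box. The promoters of H2-Ab1 and Cd74 were not analysed here. Among 32851 RefSeq promoters of this length, 33.9% hold the Y box letters and 14.7% the X box letters. An X box followed by a Y box after 10 to 40 bases on the same strand, an arrangement defined after the sequences were seen, is in 0.341%. H2-DMb1 and H2-Eb1 share it. Their genotype differences at 4 weeks, given below, had opposite signs, and a link between these letters and the differences was not tested.

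At 1 week the class II genes were higher in Glis3KO2 testis. The 4 genes Cd74, H2-DMb1, H2-Ab1 and H2-Aa rose, none fell, and H2-Eb1 and H2-DMa did not pass the test. With slide as a block 2 stayed called, as H2-Aa (0.67, limma adjusted p = 0.103) and H2-DMb1 (1.21, limma adjusted p = 0.102) no longer passed. Across all genes tested, 3.89% were called higher. For all 6 members every Glis3KO2 array lay above every WT array, against 15.5% of all genes tested. The median log2 difference of the members was 0.89, beside -0.06 over all genes.

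Of the peptide-binding chains, H2-Ab1 encodes the beta chain of the I-A molecule and H2-Aa its alpha chain. The brightest H2-Ab1 probe read -1.74, -1.31, -1.23 and -1.18 on the 1-week WT arrays and -0.50, -0.37, -0.49 and -0.11 on the 1-week Glis3KO2 arrays. The lowest Glis3KO2 array was thus well above the highest WT array. The group means differed by 1.00 in log2 (SE 0.16, limma adjusted p = 0.017), or 2.0-fold. H2-Aa read -4.70, -4.36, -4.35 and -4.68 in WT and -3.98, -3.72, -3.90 and -3.37 in Glis3KO2 on its brighter probe. These groups did not overlap either, and H2-Aa was 1.72-fold higher (log2 difference 0.78, SE 0.17, limma adjusted p = 0.036). Its second probe gave 0.70 (limma adjusted p = 0.0308). H2-Eb1, the beta chain of the I-E molecule, read -2.35, -2.81, -2.34 and -2.60 in WT and -2.25, -2.22, -2.0 and -1.80 in Glis3KO2. The groups came close to each other, and the difference of 0.46 (SE 0.16, limma adjusted p = 0.087) did not pass.

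The DM genes encode the heterodimer that removes the invariant chain remnant and edits the peptides. H2-DMb1, its beta chain, read -3.87, -3.34, -3.10 and -2.91 in 1-week WT and -1.93, -2.46, -1.89 and -1.80 in 1-week Glis3KO2. All Glis3KO2 arrays were above all WT arrays, with a log2 difference of 1.29 (SE 0.24, limma adjusted p = 0.0254), or 2.44-fold. Its partner H2-DMa read -3.23, -3.34, -3.23 and -3.27 in WT and -3.17, -3.22, -2.94 and -2.76 in Glis3KO2. The lowest Glis3KO2 arrays lay close to the WT arrays, and the difference of 0.24 (SE 0.13, limma adjusted p = 0.200) did not pass.

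Cd74 encodes the invariant chain and showed the largest 1-week difference among the members. It read -2.17, -2.64, -2.25 and -2.12 in WT and -0.30, -0.48, 0.45 and -0.34 in Glis3KO2. The gap between the groups exceeded the range within either, and the difference was 2.13 (SE 0.22, limma adjusted p = 0.0039), or 4.37-fold. The only Cd74 probe contains a stretch that matches the telomeric repeat CCCTAA with a score of 10 (1 per matching base, -1 per mismatch). Of 47 tested probes with a score of 10 or more, 55.3% were called higher at 1 week with a median difference of 1.10, against 2.98% and -0.12 of the 32331 probes scoring 6 or less. At 4 weeks the 43 such probes had a median of -0.01. The part of the repeat in the Cd74 value was not tested, and Cd74 has no value when probes scoring 7 or more are left out. No other member probe scored above 5.

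**Figure D1:**
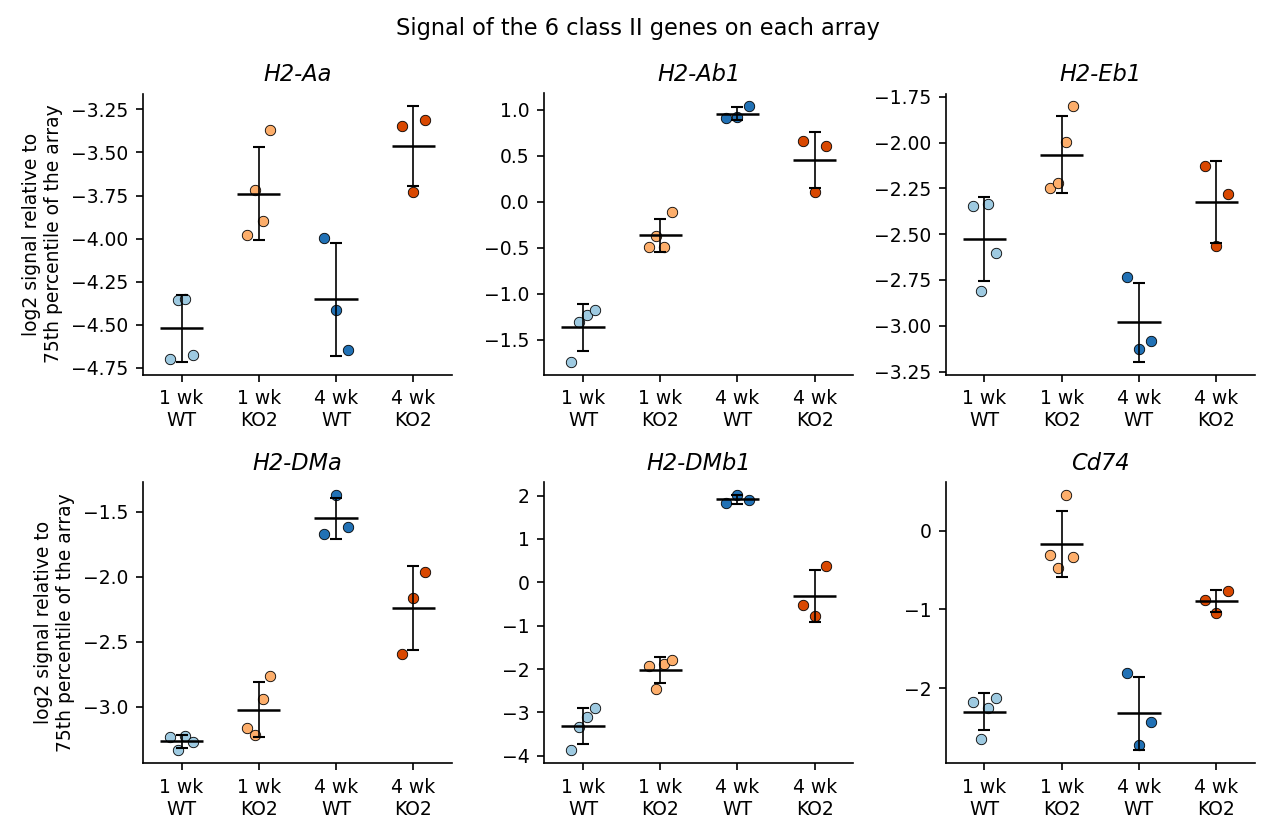
Log2 signal of the 6 genes on each of the 14 arrays (brightest probe; vertical axis relative to the 75th percentile of the array, scaled separately per gene). Points are arrays, bars the mean and SD; KO2 stands for Glis3KO2. H2-Aa, H2-Eb1 and Cd74 lie higher in Glis3KO2 at both ages, while H2-Ab1, H2-DMa and H2-DMb1 are highest in 4-week WT.

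The 1-week arrays were spread over 3 slides. Within slide 1, which held 2 arrays of each genotype, the differences were 0.59 for H2-Aa, 1.00 for H2-Ab1, 0.22 for H2-Eb1, 0.17 for H2-DMa, 1.58 for H2-DMb1 and 2.28 for Cd74. Within slide 2, with 2 WT arrays and 1 Glis3KO2 array, they were 0.80, 0.87, 0.49, 0.09, 0.66 and 1.91 in the same order. All 12 values were above 0. 1-week Glis3KO2 replicate 4 was alone on slide 3 and on its scan day, and was the highest array of that group for all members but Cd74. Without it the calls of H2-Aa (0.66, limma adjusted p = 0.0605) and H2-DMb1 (1.21, limma adjusted p = 0.0573) were lost and 2 members were called. Leaving out 1-week WT replicate 2, 1-week WT replicate 3 or 1-week Glis3KO2 replicate 1 also left 2, and leaving out 1-week WT replicate 4 left 4.

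At 4 weeks the members split. H2-Aa, H2-Eb1 and Cd74 were higher in Glis3KO2 and H2-DMb1, H2-DMa and, on its brightest probe, H2-Ab1 were lower. So 3 members were called higher and 3 lower, where 34.5% of all genes tested were called higher and 35% lower. The groups did not overlap for any of the 6, as for 38% of all genes in the higher direction and 39.3% in the lower. In either direction 69.5% were called at this age, so the members' count is near what the other genes show.

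**Figure D2:**
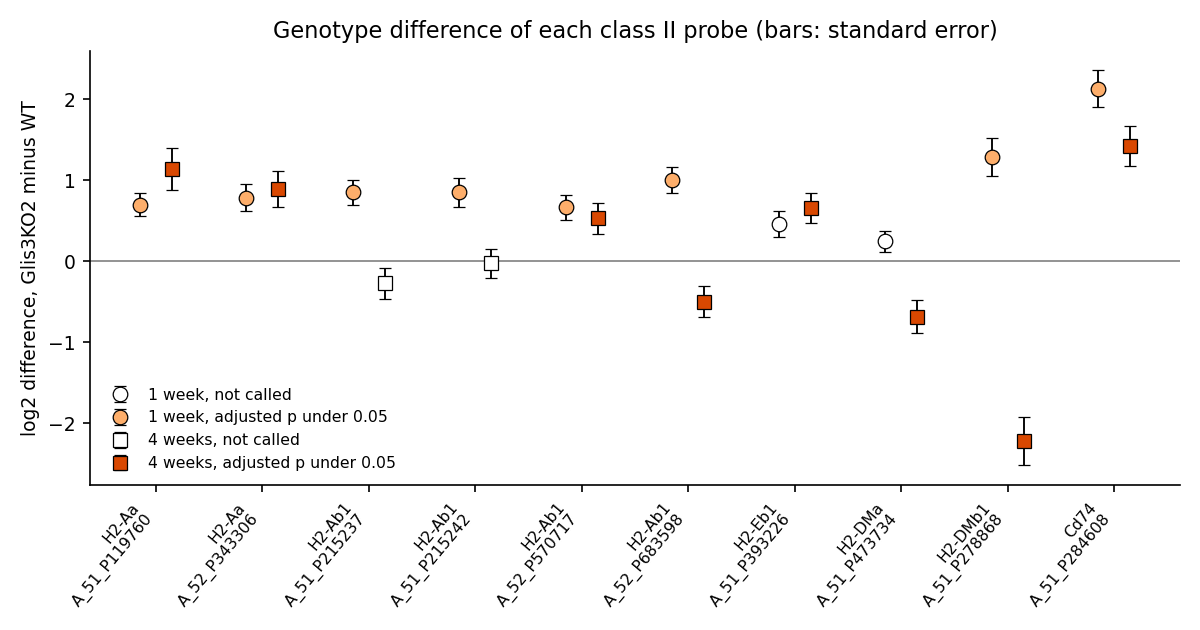
Log2 difference between Glis3KO2 and WT for each of the 10 member probes at 1 week (circles) and 4 weeks (squares), with standard errors from limma; filled symbols passed an adjusted p of 0.05. All values are above 0 at 1 week, while at 4 weeks H2-DMb1 lies at -2.22 and Cd74 at 1.42.

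H2-DMb1 showed the widest 4-week difference of the members. It read 1.82, 2.02 and 1.90 in WT and -0.51, -0.78 and 0.37 in Glis3KO2. Every Glis3KO2 array was more than 1 log2 unit below every WT array, and the difference was -2.22 (SE 0.30, limma adjusted p = 0.00109), a 4.67-fold lower signal. H2-DMa read -1.67, -1.37 and -1.62 in WT and -2.59, -2.16 and -1.96 in Glis3KO2. The groups did not overlap, and H2-DMa was 1.61-fold lower (log2 difference -0.69, SE 0.20, limma adjusted p = 0.0201).

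Cd74 read -1.81, -2.72 and -2.42 in 4-week WT and -0.88, -1.04 and -0.76 in 4-week Glis3KO2. The mutant arrays were close together and all above WT, with a difference of 1.42 (SE 0.25, limma adjusted p = 0.0025), or 2.68-fold. H2-Aa read -4.00, -4.41 and -4.64 in WT and -3.35, -3.73 and -3.31 in Glis3KO2. H2-Aa differed by 0.89 (SE 0.22, limma adjusted p = 0.00948), and its second probe by 1.13 (limma adjusted p = 0.00664). For H2-Eb1 the values were -2.73, -3.13 and -3.09 in WT and -2.13, -2.56 and -2.28 in Glis3KO2. Its groups were apart, and its difference of 0.66 (SE 0.19, limma adjusted p = 0.0173) passed at this age.

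H2-Ab1 has 4 probes, which agreed at 1 week and disagreed at 4 weeks. At 1 week they gave 1.00, 0.85, 0.85 and 0.66, all called higher. At 4 weeks A_52_P683598 gave -0.50 (limma adjusted p = 0.0473 when every probe is tested), A_51_P215237 gave -0.28 (0.235), A_51_P215242 gave -0.03 (0.897) and A_52_P570717 gave 0.53 (0.0422). The first read 0.91, 0.92 and 1.04 in WT and 0.66, 0.11 and 0.60 in Glis3KO2, and the last -4.25, -4.43 and -4.11 in WT and -3.42, -3.87 and -3.91 in Glis3KO2. Each of these parted the groups, in opposite directions, while the other 2 probes overlapped. On the mm7 build of the deposited annotation, A_51_P215242 lies at chr17:32342603-32342662, A_51_P215237 at chr17:32345268-32345327 and A_52_P683598 at chr17:32346939-32346998; A_52_P570717 has no position there. Exon annotation of that build was not used here.

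Of these probes, 3 are shown: a pair that overlaps in sequence, of which 1 was called higher at 4 weeks and the other was not called, and the probe with replicate spots. A_51_P215242 and A_52_P570717 share a stretch of 31 bases with 29 matches, and the 2 mismatched bases are in capitals; A_51_P215237 is printed in lower case throughout.
A_51_P215242: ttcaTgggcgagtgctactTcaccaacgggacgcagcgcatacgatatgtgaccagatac
A_52_P570717: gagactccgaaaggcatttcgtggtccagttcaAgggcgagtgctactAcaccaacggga
A_51_P215237: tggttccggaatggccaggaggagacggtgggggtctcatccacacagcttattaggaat
A_52_P570717 was annotated from another transcript record than the other probes of the gene. A_51_P215237 was printed on 10 spots, whose coefficient of variation on an array was 1.46% to 16.8%, the highest on 1-week WT replicate 1. Over the 14 arrays A_51_P215237 correlated at r = 0.995 with A_52_P683598, 0.987 with A_51_P215242 and 0.858 with A_52_P570717. A call that H2-Ab1 was lower at 4 weeks thus rests on 1 of 4 probes.

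**Figure D3:**
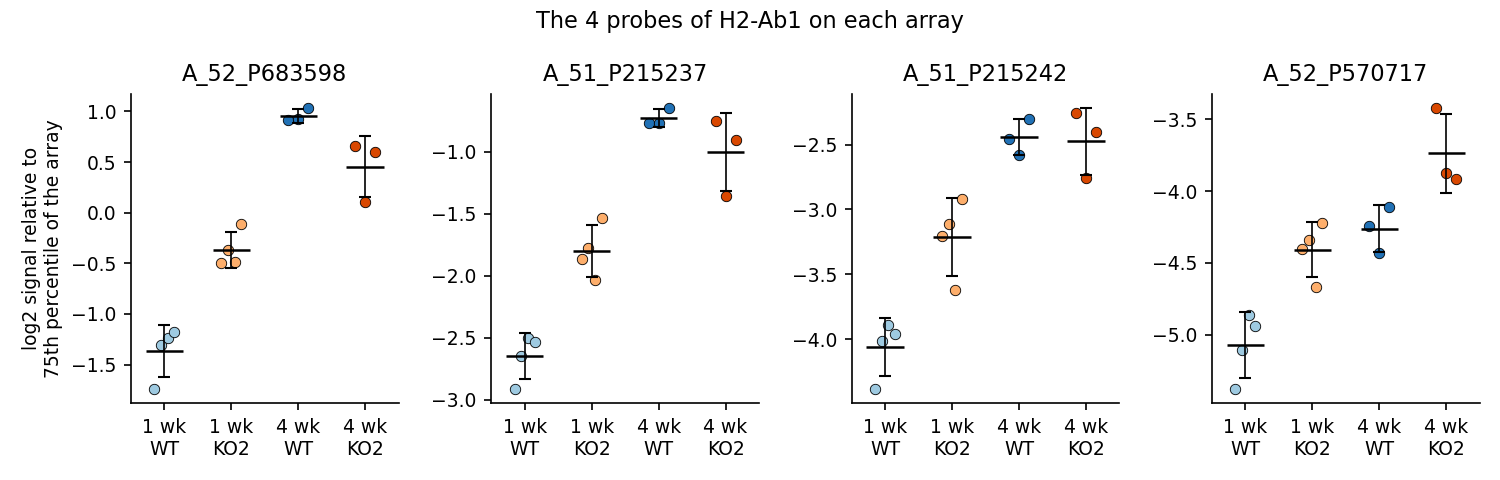
Log2 signal of the 4 H2-Ab1 probes on each array, by group (vertical axis relative to the 75th percentile of the array, scaled separately per probe; bars are mean and SD). In 4-week Glis3KO2 the first probe lies below 4-week WT and the last above it.

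Within slide 4, with 2 arrays of each genotype, the 4-week differences were 0.78 for H2-Aa, -0.59 for H2-Ab1, 0.56 for H2-Eb1, -0.74 for H2-DMa, -2.51 for H2-DMb1 and 1.15 for Cd74. Slide 5, with 1 array of each, gave 1.10, -0.32, 0.85, -0.59, -1.65 and 1.96 in that order, so both slides had the same signs. The number of members called fell to 3 without 4-week WT replicate 2 or without 4-week WT replicate 3, where H2-Ab1, H2-Eb1 and H2-DMa were not called.

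The age comparison in WT uses the same 3 arrays of 4-week WT as the 4-week genotype comparison, so the values of both are given side by side and no link is drawn from them. From 1 to 4 weeks H2-DMb1, H2-Ab1 and H2-DMa rose in WT and H2-Eb1 fell, where 31.6% of all genes tested were called higher and 49.3% lower, with a median of -0.49. H2-DMb1 rose by 5.22 on the log2 scale (SE 0.23, limma adjusted p = 9.41e-07), a 37.3-fold increase. H2-Ab1 rose by 2.32 (SE 0.15) on its brightest probe and H2-DMa by 1.71 (SE 0.10). The other H2-Ab1 probes gave smaller rises of 1.92, 1.61 and 0.81, all called. H2-Eb1 fell by 0.46 (SE 0.16, limma adjusted p = 0.0336), though its arrays overlapped and the call was lost in 7 of 19 alternatives, with an adjusted p of up to 0.108. These include leaving out 1-week WT replicate 1 or 3 and 4-week WT replicate 2 or 3 (-0.40, -0.39, -0.38 and -0.40). H2-Aa differed by 0.17 (SE 0.18, limma adjusted p = 0.417) and Cd74 by -0.02 (SE 0.24). The second H2-Aa probe gave -0.40, which also did not pass. Ages were hybridized on separate slides and scanned on separate days, so age, slide and scan day cannot be told apart.

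In Glis3KO2 the same 3 genes rose with age by less: H2-DMb1 by 1.71 (SE 0.31, limma adjusted p = 0.00183), H2-Ab1 by 0.82 (SE 0.21, limma adjusted p = 0.0117) and H2-DMa by 0.78 (SE 0.22, limma adjusted p = 0.0176). Cd74 fell by 0.73 (SE 0.26, limma adjusted p = 0.0394); probes scoring 10 or more for the telomeric repeat had a median of -1.89 in this comparison, against -0.16 for scores of 6 or less, and the part of the repeat was not tested. Here 23.5% of all genes tested were called higher and 29.1% lower, with a median of -0.14. H2-Aa (0.27) and H2-Eb1 (-0.26) did not pass. The count of 4 called members became 2 without 1-week Glis3KO2 replicate 1 and without 4-week Glis3KO2 replicate 2, in both cases because H2-DMa and Cd74 were lost.

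**Figure D4:**
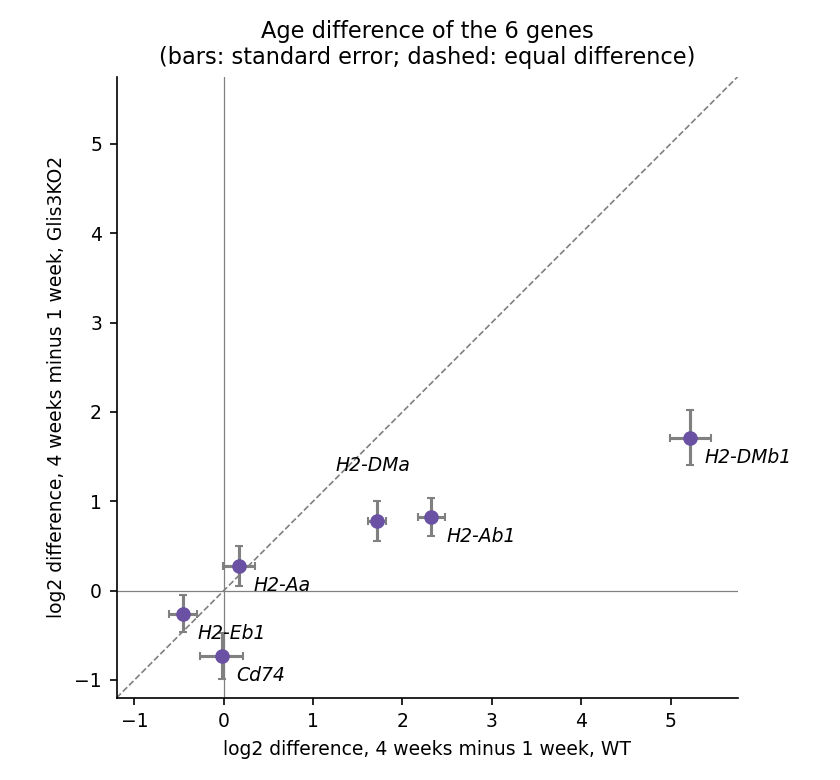
Log2 difference between 4 weeks and 1 week in WT (horizontal) and in Glis3KO2 (vertical) for the 6 genes, with standard errors; the dashed line marks equal differences. H2-DMb1 (5.22 in WT, 1.71 in Glis3KO2), H2-Ab1 and H2-DMa lie below the line, and H2-Aa and H2-Eb1 near it.

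A direct test asked whether the genotype difference at 4 weeks departs from that at 1 week, in 1 fit of all 14 arrays. It was called for 3 of 6 members, where 51% of all genes tested were called in either direction and the median was 0.24. The genotype difference was lower at 4 weeks by 3.51 for H2-DMb1 (value -3.51, SE 0.40, limma adjusted p = 5.6e-05), by 1.50 for H2-Ab1 (-1.50, SE 0.25, limma adjusted p = 4.5e-04) and by 0.93 for H2-DMa (-0.93, SE 0.23, limma adjusted p = 0.0053). For H2-Ab1 the call held on 3 of its 4 probes, and A_52_P570717 gave -0.14. Cd74 (-0.71, SE 0.36, limma adjusted p = 0.116), H2-Eb1 (0.20, SE 0.25) and H2-Aa (0.11, SE 0.28) did not pass.

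Ordered by level, H2-DMb1 and H2-DMa ran from 1-week WT through 1-week Glis3KO2 and 4-week Glis3KO2 to 4-week WT, with neighbours apart beyond their spread except the 1-week groups of H2-DMa. H2-Ab1 had the same order on its brightest probe. H2-Aa and Cd74 were lowest in the WT groups of both ages, which did not differ beyond their spread. Cd74 was highest in 1-week Glis3KO2, and H2-Aa was highest in 4-week Glis3KO2, which did not pass against 1-week Glis3KO2. H2-Eb1 was lowest in 4-week WT, followed by 1-week WT, 4-week Glis3KO2 and 1-week Glis3KO2; the ranges of the middle groups overlapped.

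Over the 14 arrays, which share their group structure and their scaling, so that r largely restates the group means, r was 0.97 between H2-DMa and H2-DMb1, 0.95 between H2-Ab1 and H2-DMb1, and 0.90 between H2-Ab1 and H2-DMa. It was 0.81 between H2-Eb1 and Cd74 and 0.75 between H2-Aa and Cd74, and -0.54 between H2-Eb1 and H2-DMa. On deviations from the group means, where group differences are taken out, the pairs were ordered otherwise. There r was 0.66 between H2-Ab1 and H2-DMb1, 0.57 between H2-Eb1 and Cd74, 0.56 between H2-Aa and each of H2-Ab1 and H2-Eb1, and 0.49 between H2-DMa and H2-DMb1. It was 0.07 between H2-Aa and Cd74 and -0.001 between H2-Ab1 and H2-DMa.

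Among 14208 genes well above background on all arrays, those most like the mean of H2-Aa, H2-Ab1 and H2-Eb1 over the 14 arrays were Usp4 (r = 0.90), Lrpap1, Atrip, Slain2 and Slc25a38 (r = 0.89 each). On deviations from the group means they were Pde9a (r = 0.91), Stom, Tm7sf2, Trp53i13 and Ren2 (r = 0.78). For single members, a comparison added after the values were seen, H2-DMb1 was most like Gstt2 (r = 0.995 over 14 arrays), a glutathione transferase, which averaged -0.35 in 1-week WT, 0.23 in 1-week Glis3KO2, 2.62 in 4-week WT and 1.39 in 4-week Glis3KO2. H2-Aa was most like Ctss (r = 0.86), the protease cathepsin S, and Cd74 was most like Ccl19 (r = 0.94), a chemokine. H2-Ab1 was most like Rnf10 (r = 0.97), H2-Eb1 like Sftpc (r = 0.90) and H2-DMa like Sucla2 (r = 0.99).

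The members lie in a stretch of chromosome 17, apart from Cd74 on chromosome 18, and neighbours in RefSeq order differed between genotypes in opposite directions. This comparison was chosen after the members' values were seen. From H2-DMa and H2-DMb1, lower at 4 weeks, the order runs through the class I peptide supply genes Psmb9, Tap1, Psmb8 and Tap2 to H2-Ab1, H2-Aa and H2-Eb1. Of these 4 between, Tap2, a subunit of the peptide transporter, rose at 4 weeks (1.71, SE 0.36, limma adjusted p = 0.00494), while Tap1 (0.98), Psmb8 (0.38) and Psmb9 (-0.06) did not pass. H2-DMb2, the near copy next to H2-DMb1, gave -0.06 at 1 week and -0.44 at 4 weeks and was not called; its probes could share signal with H2-DMb1. In WT it differed by 0.16 between the ages (limma adjusted p = 0.606), beside 5.22 for H2-DMb1. H2-Ea was above background on 0 of 14 arrays; C57BL/6 mice are known not to transcribe this alpha chain of I-E.

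**Figure D5:**
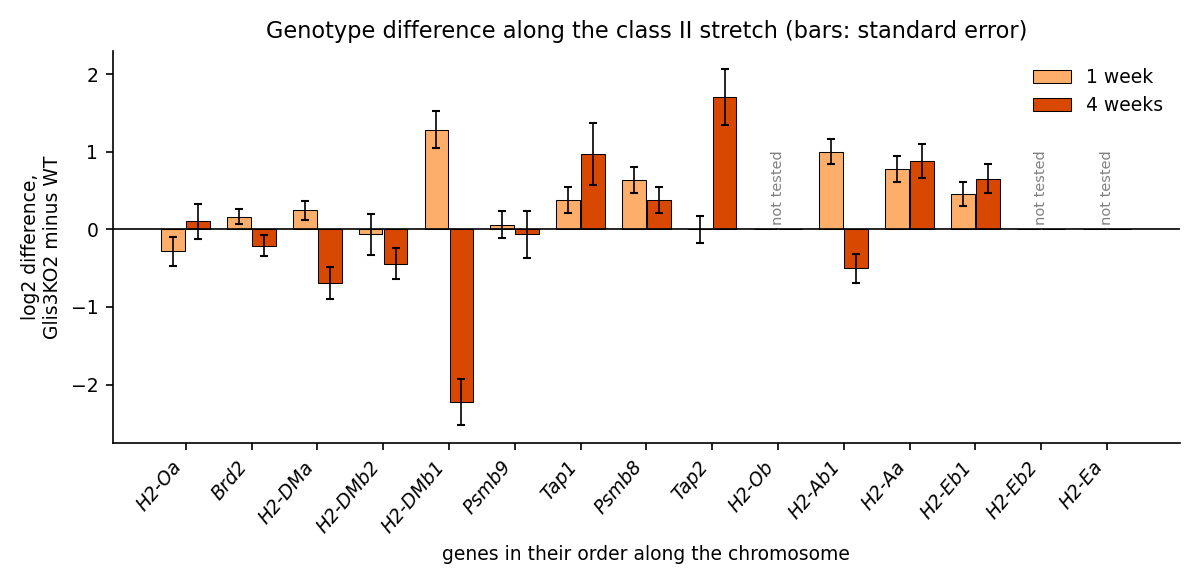
Log2 difference between Glis3KO2 and WT at 1 and 4 weeks for genes of the class II stretch in their RefSeq order, with standard errors; genes marked as not tested were below the background filter. H2-DMb1 (-2.22 at 4 weeks) and Tap2 (1.71) lie a few genes apart.

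Beside the counts of this and the following lists, 3.89% of all genes tested were called higher and 5.84% lower at 1 week. At 4 weeks 34.5% were called higher and 35% lower. Of 21 further genes of the class II pathway, 18 were tested at 1 week, and 2 rose and 0 fell with a median of 0.16. These were Ctss (0.79, SE 0.20), which trims the invariant chain, and the NF-Y subunit Nfya (1.10, SE 0.23), whose probe matches the telomeric repeat with a score of 11. At 4 weeks 17 were tested, 10 rose and 2 fell, with a median of 0.51 beside -0.002 over all genes. The endosomal proteases led: Lgmn, which encodes legumain, by 2.78 (SE 0.21), Ctss by 1.48 (SE 0.20) and Ctsl by 1.32 (SE 0.14), the last with a probe that scores 7 for the repeat. The 2 that fell, named here after their values were seen, both belong to the RFX complex: Rfxank (-1.98, SE 0.28) and Rfx5 (-0.78, SE 0.19). Rfxap, the remaining subunit of that complex, was not called (-0.18, SE 0.15, limma adjusted p = 0.316). Rfxank averaged -0.18 in 1-week WT, 0.24 in 1-week Glis3KO2, 1.32 in 4-week WT and -0.66 in 4-week Glis3KO2.

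Ciita, the coactivator, gave 0.19 at 1 week (SE 0.21, limma adjusted p = 0.529). At 4 weeks it was above background on 2 of 3 arrays of each genotype and was not tested. Class I pathway genes were tested in 12 cases at each age. At 1 week 2 rose and 1 fell (median 0.31): the class I heavy chains H2-K1 (0.76) and H2-D1 (0.65) rose and the peptide trimmer Erap1 fell (-0.84). At 4 weeks 7 rose and 0 fell (median 0.99), with Erap1 at 1.54, the peptide-loading chaperone Tapbp at 1.42 and the proteasome subunit Psmb10 at 1.23. Of the interferon gamma list 2 rose and 3 fell of 16 tested at 1 week (median 0.13), and 9 rose and 1 fell of 15 at 4 weeks (median 1.09). The kinases Jak1 and Jak2 rose by 1.88 and 1.90, while Cxcl9, a chemokine, fell by 2.17. Cxcl9 was above background on 3 of 3 arrays of 4-week WT and 1 of 3 of 4-week Glis3KO2, so it passed the filter only through WT. Ifng itself was above background on 0 of 3 arrays of 4-week WT and 2 of 3 of 4-week Glis3KO2.

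Markers of the cells known to make class II were read beside the members. Over all genes tested, 3.89% were called higher and 5.84% lower at 1 week, and 34.5% higher and 35% lower at 4 weeks. Of 16 macrophage markers 4 rose and 0 fell at 1 week (median 0.62): the surface receptor Adgre1 (0.81), the adaptor Tyrobp (0.99), lysozyme Lyz2 (0.97, repeat score 7) and the complement chain C1qc (0.81). The summed level of the list, in which Lyz2 weighs most, ran from 3.69 to 4.28 in 1-week WT and from 4.45 to 5.12 in 1-week Glis3KO2. These ranges did not overlap. Of single genes tested at 1 week, 15.5% were higher in Glis3KO2 without overlap. At 4 weeks 10 rose and 3 fell (median 0.81). The receptors Mertk (2.46) and Cd163 (2.32) rose, and Aif1 (-2.69), Fcgr1 (-0.82) and Cx3cr1 (-0.71) fell, the latter 2 named after their values were seen. Adgre1 differed by 0.02 at 4 weeks, and the summed level was 5.51 to 5.64 in WT and 5.11 to 5.52 in Glis3KO2. That sum follows Aif1, which averaged 4.96 in 4-week WT and 2.26 in 4-week Glis3KO2. Without Aif1, a sum added after the values were seen, the other 15 markers gave 3.82 to 4.21 in 4-week WT and 4.91 to 5.43 in 4-week Glis3KO2, and at 1 week 3.62 to 4.21 in WT and 4.38 to 5.02 in Glis3KO2. This sum in turn follows Lyz2, whose probe has the repeat score of 7. Lyz2 averaged 3.39 in 4-week WT and 4.57 in 4-week Glis3KO2, and 3.05 in 1-week WT and 4.02 in 1-week Glis3KO2. The part of macrophages in the members' differences was not tested.

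Ptprc, the pan-leukocyte antigen CD45, rose at 1 week (0.62, SE 0.15, limma adjusted p = 0.0437) and at 4 weeks (0.97, SE 0.22, limma adjusted p = 0.0067). Of the leukocyte list, 1 of 4 rose at 1 week (median 0.44) and 4 of 4 at 4 weeks (median 0.78). The summed leukocyte level was 0.35 to 0.61 in 1-week WT, 0.32 to 0.79 in 1-week Glis3KO2, -1.12 to -0.95 in 4-week WT and -0.56 to 0.05 in 4-week Glis3KO2. That sum follows Coro1a, the brightest of the list, which averaged 0.20, 0.13, -1.74 and -0.95 in the same order. Of 9 dendritic cell markers 6 were tested. None was called at 1 week by limma (1 at an unadjusted p under 0.05), and at 4 weeks Batf3 rose (1.04) and Ccr7 (-2.99) and Flt3 (-0.62) fell. Ccr7 was above background on 3 of 3 arrays of 4-week WT and 1 of 3 of 4-week Glis3KO2. It thus passed the filter only through WT, and the size of its difference depends on signal near background. The integrin Itgax gave -0.50 and -0.25 and was not called, nor were the B cell receptor chain Cd79a (-0.51 and 0.33) and the T cell receptor chain Cd3e (-0.39 and 0.26). The B cell list had 1 higher and 0 lower of 5 tested at 1 week and 1 higher and 3 lower of 6 at 4 weeks. Pax5, among those lower, was above background on 3 of 3 arrays of 4-week WT and 1 of 3 of 4-week Glis3KO2. The T and NK cell list had 1 higher and 0 lower of 8, then 0 higher and 2 lower of 6. Of 3 blood markers 0 were called by limma at either age, but 3 had an unadjusted p under 0.05 at 1 week and 0 at 4 weeks (medians 0.62 and -0.14). The summed blood level was 4.23 to 4.95 in 1-week WT and 4.73 to 5.79 in 1-week Glis3KO2, and the part of blood in the members' differences was not tested.

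Markers of the germ cell stages were read in the WT age and genotype comparisons. The WT age and 4-week genotype comparisons use the same 3 arrays of 4-week WT, so no link is drawn from their joint pattern. Over all genes tested, 31.6% were called higher and 49.3% lower with WT age. At 4 weeks 34.5% were called higher and 35% lower, and at 1 week 3.89% and 5.84%. All 5 spermatid markers rose with age in WT (median 9.64) and all 5 fell in 4-week Glis3KO2 (median -3.15). Their summed level was -1.13 to -0.71 in 1-week WT, -2.28 to -0.88 in 1-week Glis3KO2, 9.10 to 9.67 in 4-week WT and 5.80 to 7.26 in 4-week Glis3KO2. All 5 spermatocyte markers likewise rose with age in WT (median 3.40) and fell in 4-week Glis3KO2 (median -1.33). At 1 week, where H2-DMb1 and H2-Ab1 rose in Glis3KO2, the spermatid list had 0 of 4 called by limma (2 at an unadjusted p under 0.05) and the spermatocyte list 2 of 5 lower. The list of spermatogonia had 3 of 5 lower and 1 higher with WT age (median -0.82). At 1 week this list and that of germ cells in general had 3 of 5 lower (median -2.22) and 3 of 6 lower (median -1.45), and at 4 weeks 2 higher and 1 lower of 5, and 4 lower of 6. The part of the germ cells in the members' differences was not tested.

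Somatic marker lists differed among themselves at 4 weeks, where 34.5% of all genes were called higher. Of the Sertoli cell list 5 of 6 rose (median 1.98), of the peritubular list 4 of 5 (median 1.23) and of the endothelial list 3 of 6 (median 0.88), with none lower. At 1 week the same lists had 2, 0 and 1 called higher by limma, with 0 peritubular markers at an unadjusted p under 0.05. The Leydig cell list had 2 of 6 higher at 1 week and, at 4 weeks, 1 higher and 2 lower (median -0.67), with the steroid enzymes Cyp11a1 at -3.68 and Cyp17a1 at -2.85. Their part in the members' differences was not tested.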

How the data were processed

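The deposited scanner files hold, per the file headers, spot intensity read with Agilent Feature Extraction (9.5 per the submitters' processing notes): mean, background and a processed intensity, background-subtracted and detrended within the array. The authors' deposited series table holds the same processed intensity. The number of arrays limits the precision. Spots flagged as non-uniform were dropped, log2 signals were averaged over the spots of a probe, and each array was shifted so that its 75th percentile over non-control probes is 0. Tests took probes that 3 or more arrays of a group read well above background, 1 per gene, the brightest. Calls use limma 3.58.1 in R 4.3.3 at a Benjamini-Hochberg adjusted p under 0.05 over all genes, after a check on simulated data. Sequences and figures used Python 3.11.15 with pandas 2.3.3, numpy 2.4.6 and matplotlib 3.10.9. The summed level of a list is the log2 of the sum of its genes' relative signals.

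The members and gene lists were chosen with earlier results of these data known. Named are all members, up to 4 called genes of a list with the smallest p per genotype comparison, 6 fixed regulators and markers (Ciita, Ptprc, Adgre1, Itgax, Cd79a, Cd3e), and the 5 genes most like the peptide-binding chains by each measure. A gene that meets this rule is not reported here. Alternatives were other scalings, filters, probe rules, background correction, blocks, single slides, and leaving out each array.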

Additional observations from a re-analysis of the deposited data

Results flagged for a closer look

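The difference between the genotype effects at the 2 ages was called for 3 of 6 members, where 51% of all genes tested were called in either direction. It was -3.51 for H2-DMb1, whose Glis3KO2 minus WT difference was 1.29 at 1 week and -2.22 at 4 weeks. It was -1.50 for H2-Ab1 on its brightest probe, with 1.00 and -0.50, and -0.93 for H2-DMa, with 0.24 and -0.69. These come from the limma fit of all 14 arrays. The 2 ages were on separate slides and scan days, so age, slide and scan day cannot be told apart. No array stood far from the others of its group in the 20 probe and group combinations of 4 arrays that were examined.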

How the results depend on the processing

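No called difference of a member, by gene, changed direction under the alternatives; the single H2-Ab1 probe that did at 4 weeks is given above. At 1 week 4 members were called; 2 were called with slide as a block and 2 with a replicate block, and 0 within slide 1 and 0 within slide 2, where few arrays remain. Leaving out 1 array gave 2 to 4. At 4 weeks 6 were called, 3 within slide 4, and 3 to 6 with 1 array left out. For the age difference in Glis3KO2 4 were called, 2 with median scaling, 2 with normexp background correction (offset 50), and 2 to 4 with 1 array left out. The WT age count (3 to 4) and the count of called differences between genotype effects (3 to 4) stayed within 1.5 times the main count. Of single calls, H2-Aa at 1 week was lost in 11 of 22 alternatives, H2-DMb1 at 1 week in 8 of 22, H2-Ab1 at 4 weeks in 10 of 20 and the WT age fall of H2-Eb1 in 7 of 19; the cause was not tested. H2-Eb1 at 1 week was called with median scaling (0.72) and quantile normalization (0.63). Whether replicate numbers pair the samples is not given by the labels. Correlations of same-number arrays were -0.17 to 0.16 at 1 week and -0.31 to 0.14 at 4 weeks. Those of different-number arrays were -0.36 to 0.44 and -0.31 to 0.33, and with so few arrays this cannot settle it. Besides the calls above, the replicate block lost that of H2-Ab1 at 4 weeks (-0.50, limma adjusted p = 0.0778). Scaling moved all genes: at 1 week the median of all genes was -0.06 with 876 higher and 1313 lower, but 0.20 with 2942 and 984 under median scaling, 1425 and 1242 under quantile normalization and 1004 and 907 under normexp. For the difference between genotype effects 6907 higher and 5089 lower became 4698 and 6469 under median scaling, and the median moved from 0.24 to -0.09.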
